A study of Mus musculus with 27 samples.

Results

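Transcripts of 40 genes of the lysosome were followed in mouse colon: 15 hydrolases of glycans and sulfate esters, 9 cathepsins and other peptidases, 7 genes of lipid breakdown and export, 3 genes of the limiting membrane, 5 subunits of the proton pump and the transcription factor gene Tfeb. They were chosen by gene symbol from a table of 39971 genes, with the changes of lysosomal genes between these same groups already in view, so every count over the list describes the list and supports nothing beyond it. Each of the 40 was among the 15080 genes that passed the expression filter (a deposited FPKM, fragments scaled to gene length and library depth, of 1 or more in 5 or more libraries).

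RNA was sequenced from 27 samples of wild-type BALB/c mice in 5 groups of 1 batch, and the labels name separate mice only through their numbering. NC mice received normal saline by the intraperitoneal and intragastric routes, and their tissue was colon (n = 6). The other groups carried inflammation-associated neoplasia induced with the carcinogen azoxymethane and the colon irritant dextran sulfate sodium (AOM/DSS), and their tissue was a tumor-bearing segment of colon. CAC mice received saline by both routes (n = 5), and CAC_F mice received FOLFOX, a combination of folinic acid, fluorouracil and oxaliplatin, intraperitoneally with intragastric saline (n = 5). CAC_FP mice received FOLFOX and an intragastric probiotic complex (n = 5), and CAC_FPL mice received these together with loperamide, an opioid receptor agonist that slows gut movement (n = 6). Tissue was collected 1 week after chemotherapy began. A segment of this kind holds tumor, mucosa, muscle and immune cells. Tissue source and AOM/DSS exposure cannot be told apart between NC and CAC.

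The lysosome is the acidic compartment in which cells break down proteins, glycans and lipids delivered by endocytosis and autophagy. A vacuolar ATPase pumps protons into its lumen, where acid hydrolases work, and membrane glycoproteins such as LAMP1 shield the limiting membrane. TFEB, a basic helix-loop-helix factor, can bind the palindrome CACGTG in promoters of lysosomal genes and is known to raise their transcription when it enters the nucleus. In the gut wall, macrophages are rich in lysosomes.

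Promoter windows of 300 bases, from 250 bases before to 50 bases after the RefSeq start (build GRCm38.p6), were given for 34 of the 40 genes. None was given for Asah1, Atp6v1b2, Atp6v1h, Ctsb, Ctsh and Npc1. Windows of 4 genes are shown because they span the responses described below: Ctsd and Atp6v1a rose in CAC_F, Naglu fell, and Gusb had the smallest adjusted p of the list. Letters follow the gene's own strand, 5′ to 3′, and capitals mark CACGTG, or TCACGTGA where the longer palindrome is whole.
Ctsd, chr7:142387778-142388077, minus strand: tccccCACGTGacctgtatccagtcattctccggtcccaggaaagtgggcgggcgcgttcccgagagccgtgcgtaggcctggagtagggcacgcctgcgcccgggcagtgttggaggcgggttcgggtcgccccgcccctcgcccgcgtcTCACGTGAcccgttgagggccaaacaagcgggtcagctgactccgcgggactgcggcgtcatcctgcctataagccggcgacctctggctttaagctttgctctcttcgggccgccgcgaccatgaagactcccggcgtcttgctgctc
Atp6v1a, chr16:44139210-44139509, minus strand: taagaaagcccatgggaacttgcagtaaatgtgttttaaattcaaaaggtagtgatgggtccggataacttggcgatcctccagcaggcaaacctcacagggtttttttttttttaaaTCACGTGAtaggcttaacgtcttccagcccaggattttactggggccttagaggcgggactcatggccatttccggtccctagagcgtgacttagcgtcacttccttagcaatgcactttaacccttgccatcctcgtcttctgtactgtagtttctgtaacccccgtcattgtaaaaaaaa
Naglu, chr11:101069844-101070143, plus strand: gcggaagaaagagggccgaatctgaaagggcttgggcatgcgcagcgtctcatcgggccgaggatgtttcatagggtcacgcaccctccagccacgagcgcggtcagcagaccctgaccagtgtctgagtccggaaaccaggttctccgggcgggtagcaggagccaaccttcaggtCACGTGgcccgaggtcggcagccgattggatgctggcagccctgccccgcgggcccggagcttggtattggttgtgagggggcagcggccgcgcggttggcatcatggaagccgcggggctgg
Gusb, chr5:130003000-130003299, minus strand: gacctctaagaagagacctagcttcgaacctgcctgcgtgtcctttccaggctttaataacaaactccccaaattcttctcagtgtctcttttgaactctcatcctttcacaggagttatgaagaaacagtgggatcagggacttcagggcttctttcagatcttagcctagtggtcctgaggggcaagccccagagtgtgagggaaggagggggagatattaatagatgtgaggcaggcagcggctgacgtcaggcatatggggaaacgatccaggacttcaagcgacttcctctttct
The Ctsd window holds CACGTG at 2 places, those of Atp6v1a and Naglu hold it at 1 place, and that of Gusb does not hold these letters. CACGTG reads the same on both strands, and each TCACGTGA contains it. CACGTG occurred in a window of 13 of the 34 genes (38.2%), and in 7.15% of all 32851 windows of the same length. The first share is per gene and the second per window. A gene was counted if any of its windows held the letters, and 5 of the 34 had several windows. Of genes with a window that rose in CAC_F against CAC, 4 of 10 held CACGTG (Atp6v1a, Ctsd, Ctsl and Lgmn). So did 2 of 7 that fell (Glb1 and Naglu) and 7 of 17 without a call. TCACGTGA occurred for 6 of the 34 genes (17.6%), against 0.974% of all windows, again per gene beside per window. A match of letters is a description of the window and not a binding site.

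Per kilobase, the list covered a wide range of levels. Mean FPKM over the 27 libraries was highest for Psap, the precursor of the saposins that help sphingolipid hydrolases (391), then Lamp1 (211) and the aspartic peptidase gene Ctsd (181). The lowest means were 3.51 for Tfeb, 2.66 for the iduronidase gene Idua and 1.04 for Galc, the galactosylceramidase gene. Below, a level is in CPM, counts scaled to the TMM-adjusted depth of each library, and is compared only within a gene. Tests are edgeR quasi-likelihood tests over all 15080 genes, a change is a log2 fold change ± its standard error, and a gene was called where its Benjamini-Hochberg adjusted p was below 0.05.

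Total counts ran from 56687812 to 79709845 per library. Epithelial markers were high in every library (summed level of 6 genes 5797 to 11895 CPM), and 7 markers of small intestine and Paneth cells summed to 5.03 to 133 CPM. Levels of other cell types moved with the groups. The 14 macrophage and monocyte markers summed to 623 to 1184 CPM in CAC and 1303 to 2515 CPM in CAC_F, without overlap; Marco was at 0 counts in 23 of 27 libraries and no other marker of that list was at 0 in any. Of the 13 tested, 7 rose in CAC_F (C1qa, C1qb, C1qc, Mrc1, Cd14, Itgam and Msr1) and none fell; the defining genes Adgre1 (-0.20 ± 0.21) and Csf1r (-0.13 ± 0.18) were not called. The 10 smooth muscle markers summed to 3461 to 15754 CPM in CAC and 1736 to 3071 CPM in CAC_F, and 9 fell. Other lists also held called genes in CAC_F. Of neutrophil markers 3 of 6 tested were higher, and the list summed to 286 to 1072 CPM beside 14.1 to 137 CPM in CAC. Ly6g made up most of that sum in CAC_F (mean 665 CPM, beside 20.8 CPM in CAC). S100a8 and Mmp9 also rose, to means of 3.80 and 12.3 CPM. S100a9 (2.20 ± 1.20), Csf3r (-0.23 ± 0.44) and Retnlg (-0.52 ± 0.37) were not called. Called lower were 5 of 8 T cell, 4 of 8 B and plasma cell, 4 of 8 goblet cell and 1 of 8 absorptive colonocyte markers. Of fibroblast markers 2 of 8 were higher and 1 lower, and of epithelial markers 2 of 6 were higher. In the same comparison 19% of all tested genes were called higher and 20.2% lower, and the smaller of these marker counts lie near that share. The part of any marker list in the lysosomal changes was not tested. In such bulk tissue fewer cells of a type and less RNA per cell cannot be told apart.

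Between CAC and NC no gene of the list was called by edgeR, where 0.00663% of all tested genes were (1 of 15080), and 4 of the 40 had an unadjusted p below 0.05, as did 1164 of the 15080. DESeq2 called 1 of the 40, Galc, which was 0.40 ± 0.10 higher in CAC with an edgeR adjusted p of 0.288. The median change was 0.06 for the list and 0.01 for all genes; that of the list ran from 0.04 to 0.12 over all alternatives and was 0.04 without NC replicate 5 or CAC replicate 5. Groups did not overlap for Lgmn, the asparaginyl endopeptidase gene, higher in CAC (lowest 148 CPM against an NC maximum of 135), nor for Tfeb, lower in CAC (highest 25.8 CPM against an NC minimum of 27.2), where 0.617% of all genes lay apart in the higher direction and 0.477% in the lower one. Their edgeR adjusted p-values were 0.683 and 0.534. Of the genes described below, NC libraries held 46.1 to 64.2 CPM of Gusb (median 54.1), 84.2 to 113 CPM of Ctsl (105), 317 to 392 CPM of Ctsd (364), 44.3 to 51.4 CPM of Lipa (48.3) and 38.4 to 54.8 CPM of Npc1 (45.5). Atp6v0c ran from 88.6 to 103 CPM (95.9), Atp6v1a from 86.6 to 96 CPM (94.3), Lamp1 from 535 to 631 CPM (566) and Mcoln1 from 45.4 to 57.2 CPM (49.6). Hexa ran from 113 to 151 CPM (129), Ppt1 from 79.7 to 95.7 CPM (83.5) and Naglu from 25.9 to 38.1 CPM (30.7). Each of these ranges overlapped that of CAC.

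Chemotherapy without the probiotic complex was compared with saline in mice with neoplasia. Against CAC, 14 of the 40 genes rose in CAC_F and 7 fell, where 39.1% of all tested genes were called, 19% higher and 20.2% lower. The median change was 0.18 for the list and -0.03 for all genes, and with the mean of the macrophage markers as a covariate it was 0.06 and -0.04. Without a covariate 3 called genes changed at least 2-fold: Ctsl, Gusb and Lgmn. CAC_F and CAC did not overlap for 13 genes in the higher direction and 2 in the lower one, where 10.9% and 9.88% of all genes did not overlap. Without CAC replicate 5 or CAC_F replicate 4 the lower genes numbered 4. In the plot of changes by role, peptidases and pump subunits lie mostly to the right of 0 and glycan hydrolases on both sides.

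**Figure D1:**
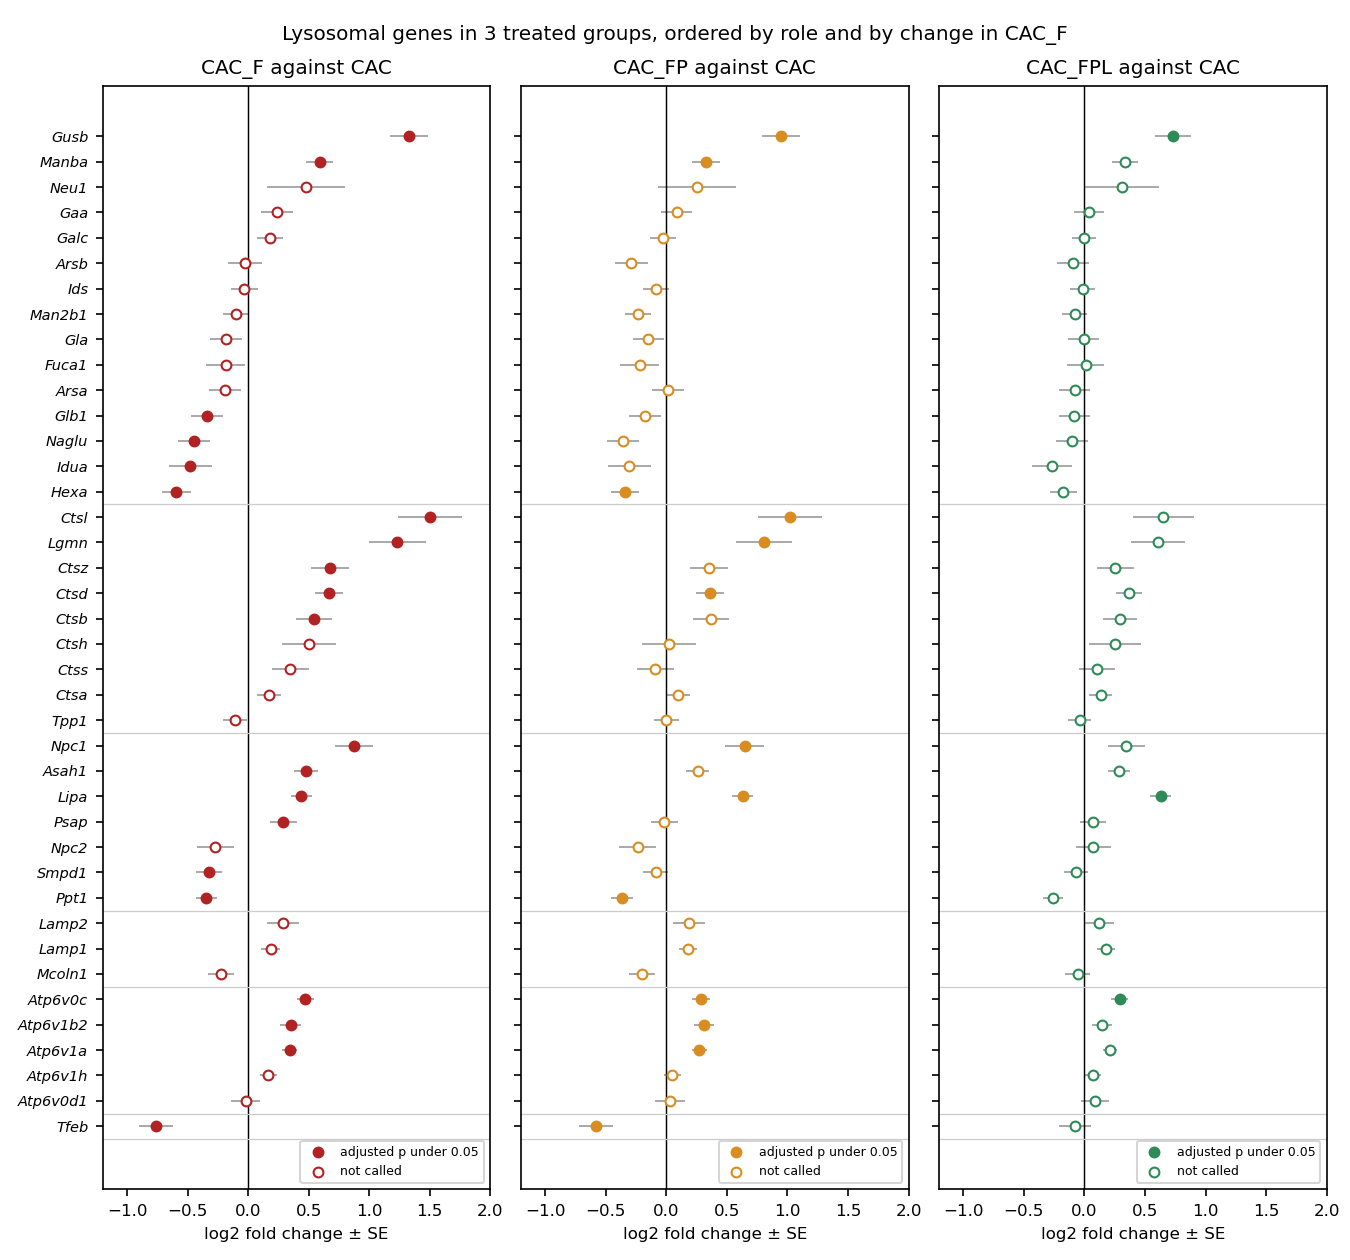
Log2 fold changes (x axis, ± SE) of the 40 genes in CAC_F, CAC_FP and CAC_FPL against the same CAC libraries. Genes run from top to bottom as glycan and sulfate ester hydrolases, peptidases, lipid genes, membrane genes, pump subunits and Tfeb, split by lines, and filled points mark an adjusted p below 0.05 (21, 13 and 3 genes).

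Of the 9 peptidase genes 5 rose in CAC_F and none fell, where 19% of all tested genes rose and 20.2% fell. The median change of the 9 was 0.54. Ctsl encodes cathepsin L, a cysteine endopeptidase. Its level was 121, 129, 99.5, 125 and 177 CPM in the 5 CAC libraries and 459, 563, 186, 299 and 342 CPM in the CAC_F libraries. Every CAC_F library lay above every CAC library, with replicate 3 only just so, and the change was 1.50 ± 0.26 (edgeR adjusted p = 0.000209).

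Ctsd encodes cathepsin D, an aspartic endopeptidase that is widely used as a lysosomal marker. CAC libraries held 391, 411, 326, 366 and 387 CPM and CAC_F libraries 501, 769, 544, 603 and 576 CPM. The groups did not overlap, replicate 2 of CAC_F stood highest, and the gene rose by 0.67 ± 0.11 (edgeR adjusted p = 0.00017). Lgmn rose by 1.23 ± 0.24, Ctsz, a carboxypeptidase gene, by 0.67 ± 0.16, and Ctsb, the gene of cathepsin B, by 0.54 ± 0.15. The other 4 were not called: Ctsh (0.50 ± 0.22), Ctss (0.35 ± 0.15), Ctsa (0.17 ± 0.10) and Tpp1 (-0.11 ± 0.10).

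**Figure D2:**
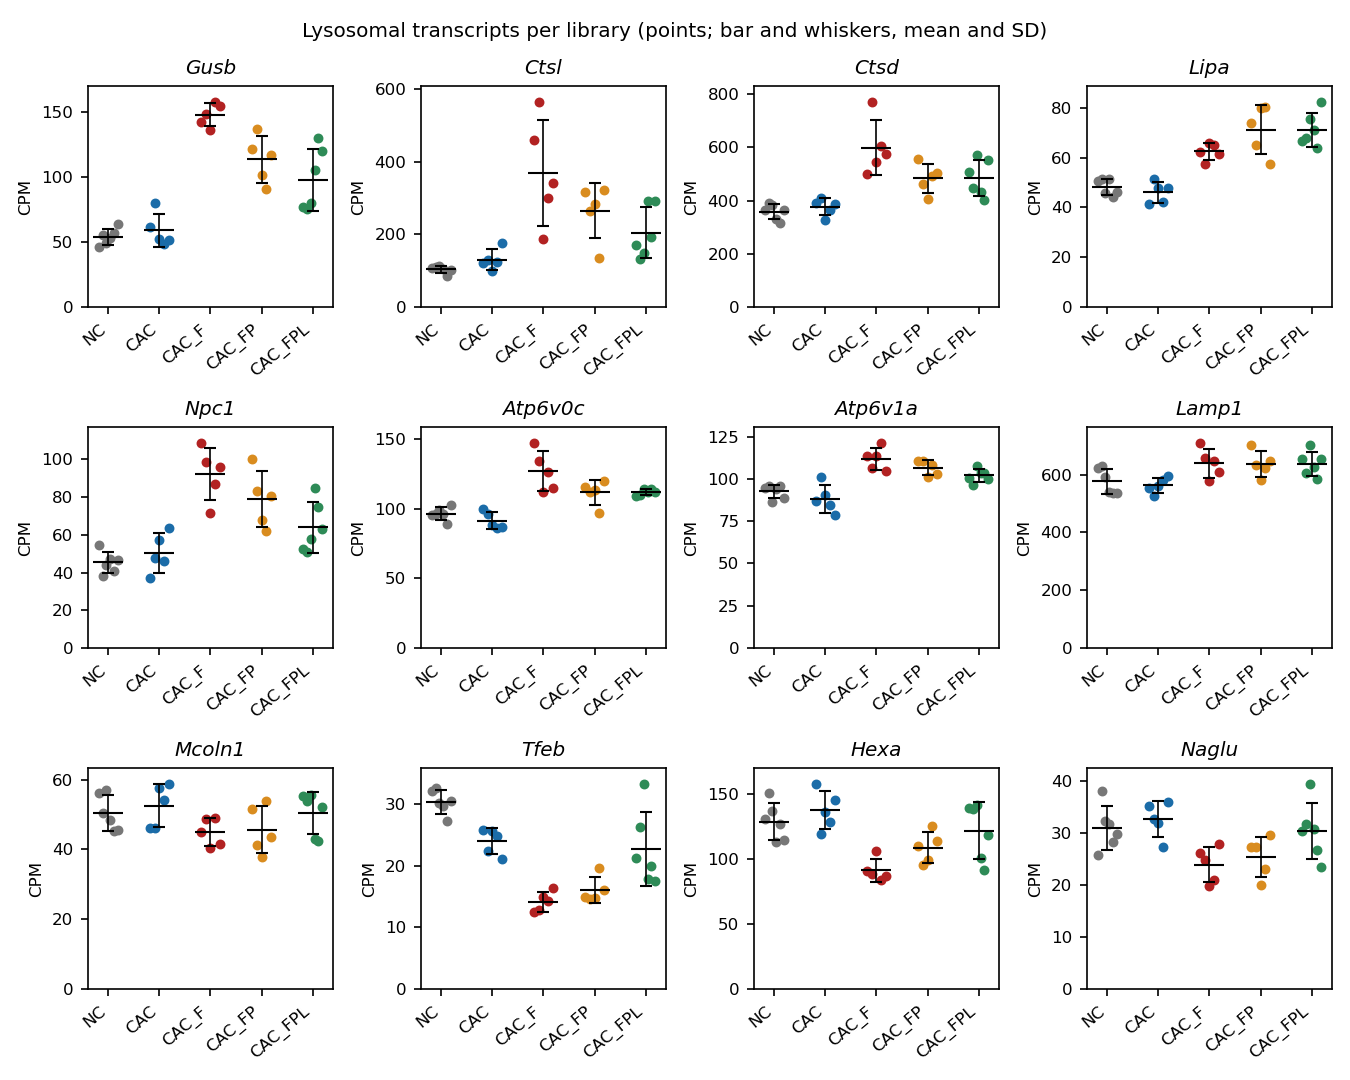
Level in CPM (y axes, from 0) of 12 lysosomal genes in each library (points) of the 5 groups, with the group mean (bar) and SD (whiskers). Gusb lies at 136 CPM or more in all 5 CAC_F libraries and at 80.4 CPM or less in all 5 CAC libraries, and Tfeb at 16.4 CPM or less in CAC_F and 21.2 CPM or more in CAC.

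Of the 5 proton pump genes 3 rose and none fell (median change 0.34), beside 19% and 20.2% of all tested genes. Atp6v0c encodes the proteolipid of the membrane ring that carries protons. It held 100, 95.9, 88.2, 86.1 and 86.8 CPM in CAC and 147, 134, 112, 127 and 115 CPM in CAC_F. All 5 treated libraries exceeded all 5 CAC libraries, and the change was 0.47 ± 0.07 (edgeR adjusted p = 6.5e-05). Atp6v1a encodes the catalytic subunit that splits ATP, and its levels were 86.8, 101, 90.3, 84.6 and 78.8 CPM in CAC and 114, 107, 114, 121 and 105 CPM in CAC_F. These groups did not overlap either (0.34 ± 0.06, edgeR adjusted p = 0.000257). Atp6v1b2, the gene of the partner subunit of the catalytic head, rose by 0.35 ± 0.08, with 1 overlap between groups: CAC replicate 3 at 141 CPM lay above CAC_F replicate 3 at 137 CPM. Atp6v1h (0.17 ± 0.07) and Atp6v0d1 (-0.02 ± 0.12) were not called.

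Among glycan and sulfate ester hydrolases 2 of 15 were higher and 4 lower (median change -0.10). Of all tested genes 19% were higher and 20.2% lower, so these counts lie near the background. Gusb encodes β-glucuronidase, which removes glucuronic acid from glycosaminoglycans; in the deposited table it lies on chromosome 5 from 130017852 to 130031890, minus strand, of a build that the sources used here do not name. CAC libraries held 61.6, 80.4, 52.3, 48.8 and 51.8 CPM, and CAC_F libraries 143, 149, 136, 158 and 155 CPM. The lowest treated library was far above the highest CAC library, and the change was 1.33 ± 0.16 (edgeR adjusted p = 1.43e-05). Manba, the β-mannosidase gene, rose by 0.59 ± 0.11 with groups that did not overlap.

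Hexa encodes the α subunit of β-hexosaminidase, which takes part in ganglioside breakdown. Its level was 158, 119, 137, 129 and 146 CPM in CAC and 91.2, 88.4, 106, 84.1 and 86.7 CPM in CAC_F. No CAC_F library reached the lowest CAC library, and the gene fell by 0.59 on the log2 scale (SE 0.12, edgeR adjusted p = 0.00053). Naglu, whose product takes N-acetylglucosamine from heparan sulfate, held 35.3, 32.7, 31.9, 27.3 and 36 CPM in CAC and 26.2, 24.7, 19.8, 21 and 27.9 CPM in CAC_F. Only CAC replicate 4 overlapped the treated range, and the change was -0.45 ± 0.13 (edgeR adjusted p = 0.0112).

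Idua (-0.48 ± 0.18) and the β-galactosidase gene Glb1 (-0.34 ± 0.13) also fell, with edgeR adjusted p-values of 0.0359 and 0.0454. Both calls lay near the threshold and were lost in several fits that left out 1 library. Idua's edgeR adjusted p was 0.0627 to 0.123 without any 1 of CAC replicates 3, 4 and 5 or CAC_F replicates 1, 3 and 4. Glb1's edgeR adjusted p was 0.0614 to 0.118 without any 1 of CAC replicates 1, 3, 4 and 5 or CAC_F replicates 2 to 5. Tmppe overlaps Glb1 on the same strand and held 12.4% as many counts, and whether counting kept them apart is not given. The other 9 hydrolases were not called, from Neu1, the sialidase gene (0.48 ± 0.32), to Arsa, the arylsulfatase A gene (-0.19 ± 0.13).

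Among genes of lipid handling 4 of 7 were higher and 2 lower (median 0.29), beside 19% and 20.2% of all tested genes. Npc1 encodes the membrane protein that exports cholesterol from the lysosome. CAC libraries held 36.9, 47.9, 57.3, 45.9 and 63.7 CPM and CAC_F libraries 109, 98.4, 71.8, 86.9 and 95.8 CPM. The groups did not overlap and the change was 0.87 ± 0.16 (edgeR adjusted p = 0.000284). Npc2, whose soluble product hands cholesterol to NPC1, was not called (-0.27 ± 0.15).

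Lipa encodes lysosomal acid lipase, which frees cholesterol and fatty acids from esters. It held 41.2, 51.3, 47.6, 42.3 and 47.9 CPM in CAC and 62.4, 57.4, 66, 65.2 and 61.4 CPM in CAC_F (0.44 ± 0.09, edgeR adjusted p = 0.000627), without overlap. Asah1, the acid ceramidase gene, rose by 0.48 ± 0.10 and Psap by 0.29 ± 0.11. Ppt1, the gene of a palmitoyl-protein thioesterase, held 98, 95, 86.3, 106 and 112 CPM in CAC and 81, 93.6, 71.1, 72.7 and 72.7 CPM in CAC_F. It fell by 0.35 (SE 0.09, edgeR adjusted p = 0.00369), with CAC_F replicate 2 inside the CAC range. Smpd1, the acid sphingomyelinase gene, fell by 0.32 (SE 0.10). Calls of Psap and Smpd1 were also lost in some fits that left out 1 library. Psap had an adjusted p of 0.0823, 0.102 and 0.121 without CAC replicate 3, CAC replicate 4 and CAC_F replicate 2, and Smpd1 one of 0.0579, 0.0533 and 0.0565 without CAC replicate 5, CAC_F replicate 1 and CAC_F replicate 4.

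Membrane genes gave no call. Lamp1 held 554, 524, 559, 579.9 and 593 CPM in CAC and 708, 656, 577, 649 and 608 CPM in CAC_F, with 1 treated library inside the CAC range (0.19 ± 0.08, edgeR adjusted p = 0.0557). Without CAC_F replicate 3 or replicate 5 it passed the threshold, at 0.019 and 0.0319. Mcoln1 encodes the calcium channel TRPML1, and its level was 46.1, 46.1, 57.8, 54.1 and 58.7 CPM in CAC and 44.9, 48.7, 40.5, 49.1 and 41.5 CPM in CAC_F (-0.23 ± 0.11, edgeR adjusted p = 0.101). Lamp2, the other major LAMP gene, differed by 0.29 ± 0.13 (edgeR adjusted p = 0.0837).

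Tfeb fell. NC ran from 27.2 to 32.6 CPM with a median of 30.3, CAC libraries held 25.8, 22.4, 25.6, 24.9 and 21.2 CPM, and CAC_F libraries 12.5, 12.8, 14.9, 14.2 and 16.4 CPM. The highest CAC_F library lay below the lowest CAC library, and the change was -0.76 ± 0.14 (edgeR adjusted p = 0.000278). Transcript level says nothing of where the TFEB protein was in the cell.

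Levels of the macrophage markers moved with this comparison, and the lysosomal changes were also fitted with the mean of that list as a covariate. The number of all genes called was then 1883 in place of 5902. Of the 40, 8 were called higher (Gusb, Manba, Ctsd, Lipa, Asah1, Npc1, Atp6v0c and Atp6v1a) and 3 lower (Hexa, Ppt1 and Smpd1). Gusb was 1.03, Ctsd 0.50, Npc1 0.58 and Lipa 0.45 in that fit. Ctsl was 0.59 (edgeR adjusted p = 0.0785), Lgmn 0.55 (0.116), Ctsb 0.04 (0.831), Ctsz 0.21 (0.354) and Tfeb -0.45 (0.055), none of them called. Other genes no longer called were Psap, Atp6v1b2, Naglu, Idua and Glb1. With the smooth muscle list as covariate 15 genes were higher and 2 lower (Hexa at -0.56 and Tfeb at -0.88), and Ctsl was 1.92. Neither the macrophage nor the smooth muscle sums of CAC and CAC_F overlapped, so these fits cannot tell marker level and treatment apart.

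**Figure D3:**
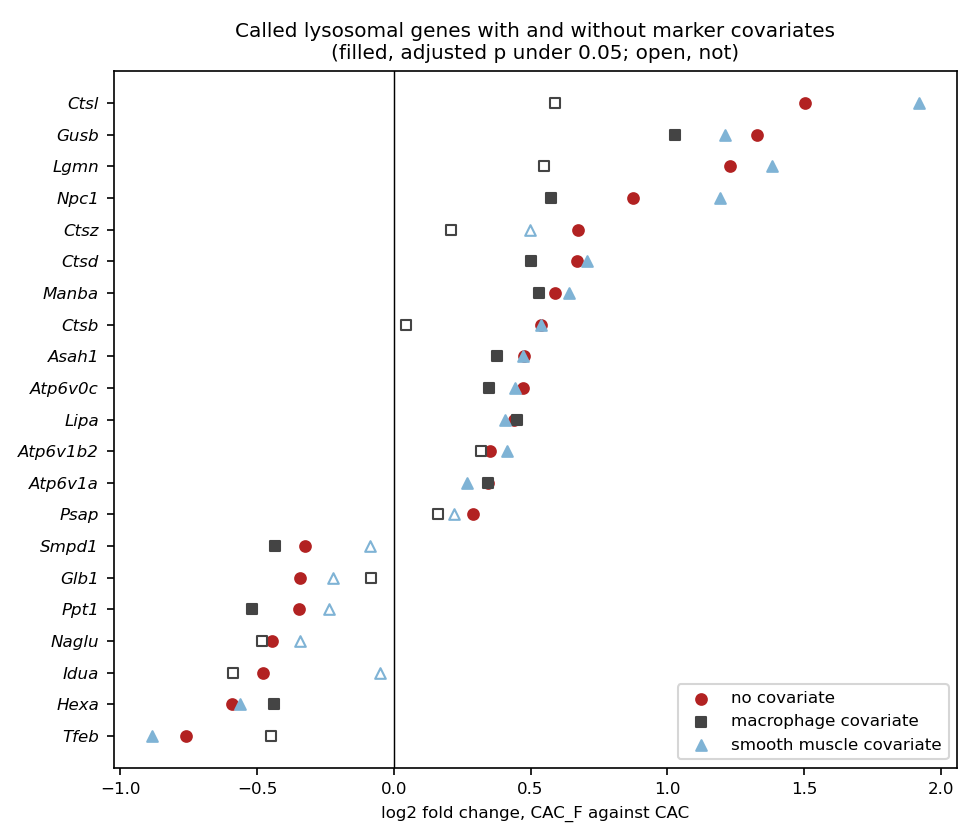
Log2 fold change (x axis) in CAC_F against CAC of the 21 genes called without a covariate, in fits without a covariate (circles) and with the macrophage (squares) or smooth muscle (triangles) marker mean; filled points have an adjusted p below 0.05. Gusb stays above 1 in each fit, while Ctsb goes from 0.54 to 0.04 with the macrophage covariate.

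Summed over genes, the 9 peptidases took 1806 to 2122 CPM in CAC and 2456 to 4090 CPM in CAC_F, without overlap. The highest library in CAC_F was replicate 2, which also had the highest macrophage sum. The 5 pump genes summed to 444 to 506 CPM in CAC and 515 to 660 CPM in CAC_F. Sums of the 15 glycan hydrolases overlapped, at 927 to 1154 CPM and 1023 to 1322 CPM.

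**Figure D4:**
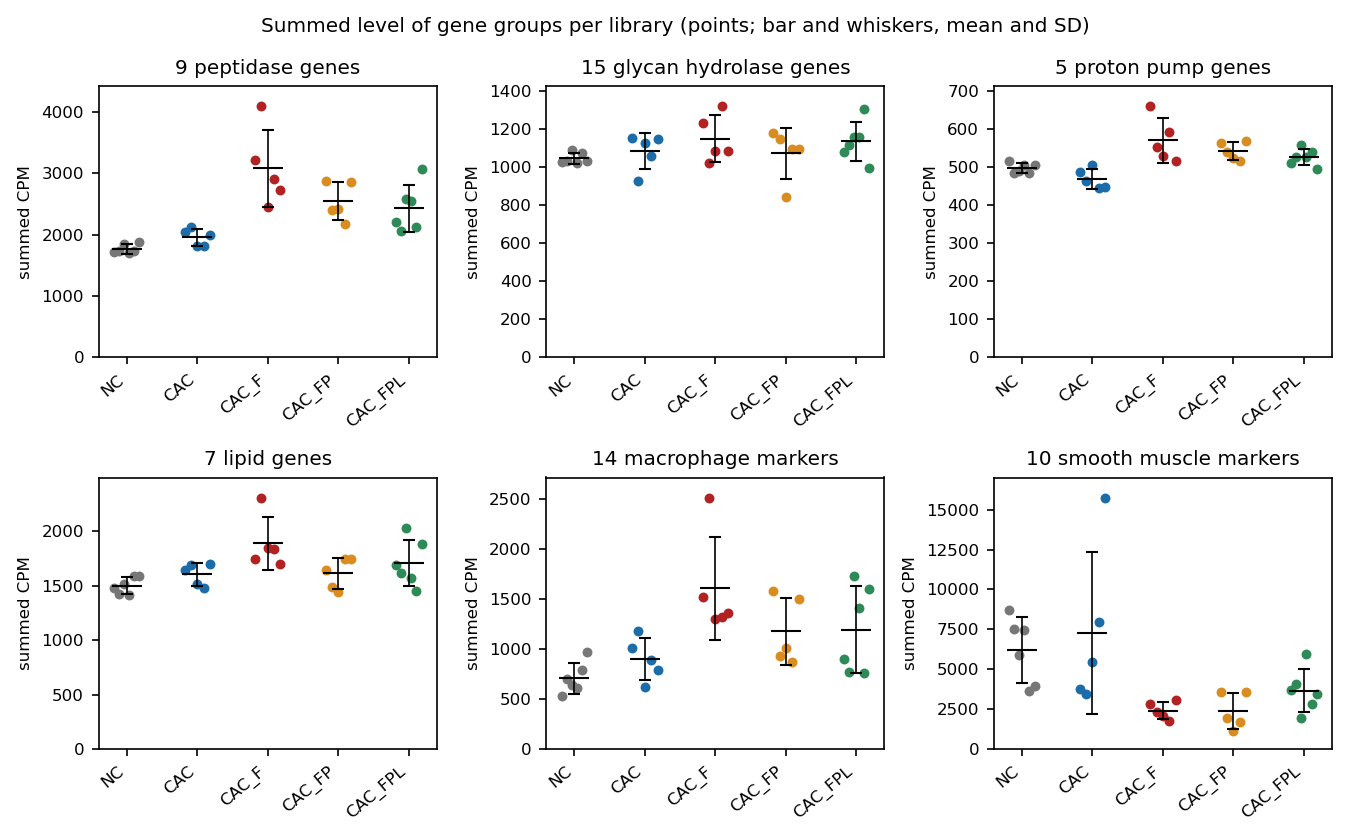
Summed CPM (y axes, from 0) of 4 groups of lysosomal genes and 2 marker lists in each library (points), with the group mean (bar) and SD (whiskers). Peptidase sums in CAC_F (2456 to 4090 CPM) lie above all CAC libraries (at most 2122 CPM), as do macrophage marker sums, and the highest smooth muscle sum is a CAC library at 15754 CPM.

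Genes that work beside those of the list were called in both directions. Of 96 other lysosomal, sorting, TFEB-family and autophagy genes tested, 14 rose and 21 fell in CAC_F, with a median of 0.01. These are 14.6% higher and 21.9% lower, beside 19% and 20.2% of all genes, so the counts lie near or below the background. Of 23 further enzymes and activators 7 rose and 4 fell (30.4% and 17.4%). Naaa, the gene of an acid amidase of N-acylethanolamines, fell by 1.24 (SE 0.16, edgeR adjusted p = 2.53e-05), while Ctsc, the gene of cathepsin C, rose by 0.83 ± 0.18 and Plbd2 by 0.45 ± 0.10. Of 20 further membrane proteins 3 rose and 6 fell (15% and 30%); Scarb2, the gene of the sorting receptor for glucocerebrosidase, rose by 0.62 ± 0.12 and the calcium channel gene Tpcn2 by 0.47 ± 0.12, and Tmem175, an ion channel gene, fell by 0.53 (SE 0.15). Cd68, itself abundant in macrophages, rose by 0.87 ± 0.26 and Slc38a9, the gene of an arginine sensor, fell by 0.47 (SE 0.14).

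Of 16 further pump subunits 2 rose and 3 fell (12.5% and 18.8%, beside the same 19% and 20.2% of all genes). Atp6v0d2, a subunit isoform known from osteoclasts and macrophages, held 0.442, 3.36, 0.684, 0.562 and 0.601 CPM in CAC and 4.25, 15.4, 7.59, 10.6 and 7.61 CPM in CAC_F (3.00 ± 0.84, edgeR adjusted p = 0.00702). Replicate 2 was the highest library of each group, and the groups did not overlap. Atp6v1c1 rose by 0.24 ± 0.07, and Atp6v0b and Atp6v0a2 fell by 0.31 and 0.41. Of 8 genes that tag and sort lysosomal enzymes 2 fell (25%), Gnptg by 0.43 (SE 0.11) and Sort1 by 0.67 (SE 0.19), and none rose.

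In the TFEB family and its nutrient-sensing control 1 of 14 rose and 3 fell (7.14% and 21.4%, beside 19% and 20.2% of all genes). Tfe3, a relative of Tfeb, rose by 0.21 ± 0.07 (edgeR adjusted p = 0.0253), and the genes of 2 Ragulator subunits, Lamtor2 and Lamtor4, fell by 0.88 (SE 0.19) and 0.41 (SE 0.16), as did the folliculin gene Flcn by 0.54 (SE 0.13). Among 15 autophagy genes 1 rose and 3 fell (6.67% and 20%). That 1 was Atg9b, at 0.93, 3.5, 1.23, 1.2 and 1.67 CPM in CAC and 48.5, 85.5, 58.4, 52.9 and 102 CPM in CAC_F (5.34 ± 0.61). Atg12 fell by 0.61 (SE 0.09), Gabarap by 0.33 (SE 0.08) and Atg5 by 0.24 (SE 0.09).

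CAC_FP against CAC asks the same of mice that also had the probiotic complex, and it uses the same CAC libraries. In CAC_FP 10 of the 40 genes rose and 3 fell, where 18.6% of all genes were called, 9.68% higher and 8.9% lower. The median change was 0.03 for the list, against -0.03 for all genes, and its sign changed between fits: it was -0.0081 without CAC replicate 4, -0.02 with the macrophage covariate and 0.14 with the smooth muscle covariate. It was 0.0087 without CAC_FP replicate 5 and 0.06 to 0.07 without any 1 of CAC replicates 1 and 5 or CAC_FP replicates 2, 3 and 4. Groups did not overlap for 3 genes in the higher direction and 2 in the lower one (5.19% and 4.92% of all genes). By role, 3 of 9 peptidases, 3 of 5 pump genes, 2 of 7 lipid genes and 2 of 15 glycan hydrolases rose.

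Lipa held 73.8, 65, 79.8, 80.2 and 57.4 CPM in CAC_FP, above every CAC library (0.63 ± 0.09, edgeR adjusted p = 0.00031). Gusb held 122, 137, 102, 90.8 and 117 CPM, also without overlap (0.95 ± 0.15, edgeR adjusted p = 0.000806). These were the only genes of this comparison that were called in every alternative fit. Atp6v1a held 111, 110.4, 101, 108 and 103 CPM (0.27 ± 0.06, edgeR adjusted p = 0.0057), and its lowest library lay level with the highest CAC library.

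Npc1 ranged more widely, at 100.2, 83.3, 67.9, 61.8 and 80.7 CPM (0.65 ± 0.16, edgeR adjusted p = 0.00881), and its lowest library, replicate 4, lay inside the CAC range. The same library was lowest for Ctsl, at 136 CPM beside 263 to 322 CPM in the other 4 (1.02 ± 0.26, edgeR adjusted p = 0.011). Atp6v0c held 116, 112, 113, 96.7 and 119.5 CPM (0.29 ± 0.07, edgeR adjusted p = 0.00931), again with replicate 4 lowest.

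Levels of other cell types moved with this comparison too. Macrophage marker sums were 870 to 1584 CPM in CAC_FP, with replicate 4 lowest, beside 623 to 1184 CPM in CAC. Of the 13 tested, 5 rose (Mrc1, Cd163, Cd14, Itgam and Msr1) and none fell. The defining genes Adgre1 (0.05 ± 0.21) and Csf1r (-0.39 ± 0.18) were not called, nor were Lyz2 (-0.23 ± 0.35) and C1qa (0.51 ± 0.25). Smooth muscle marker sums were 1127 to 3567 CPM beside 3461 to 15754 CPM in CAC, and 9 of 10 fell, among them Actg2 by 2.39 (SE 0.44) and Cnn1 by 2.05 (SE 0.41). Of the other lists, 1 of 6 neutrophil markers rose (Ly6g, 4.18 ± 1.12), as did 1 of 8 fibroblast markers, and 3 of 8 T cell, 4 of 8 B and plasma cell and 2 of 8 goblet cell markers fell. Beside these, 9.68% of all tested genes were called higher and 8.9% lower. The part of any marker list in the lysosomal changes was not tested.

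With the macrophage covariate 3 of the 40 genes were called higher (Gusb at 0.70, Lipa at 0.64 and Atp6v1a at 0.27) and 1 lower (Ppt1 at -0.50). The other 9 calls ended. Ctsl was 0.30 (edgeR adjusted p = 0.34), Lgmn 0.26 (0.45), Npc1 0.40 (0.143), Ctsd 0.23 (0.249) and Tfeb -0.33 (0.131). With the smooth muscle covariate 6 genes were higher, with Ctsl at 1.45 and Npc1 at 0.97, and Tfeb was lower (-0.71). Marker levels moved with this comparison too, so these fits cannot tell marker level and treatment apart.

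Lgmn (0.81 ± 0.23), Ctsd (0.36 ± 0.11), Atp6v1b2 (0.31 ± 0.08) and Manba (0.33 ± 0.11) made up the rest that rose. Ctsd levels were 555, 460.4, 406, 494 and 504 CPM, and its call was lost without CAC replicate 3 (edgeR adjusted p = 0.0761), CAC replicate 4 (0.0661), CAC replicate 5 (0.0518) or CAC_FP replicate 1 (0.0659). That of Manba was lost without any 1 of CAC replicates 1, 3, 4 and 5 or CAC_FP replicates 1 and 2, at 0.0705 to 0.134.

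Tfeb fell in CAC_FP as well, to 14.9, 14.6, 14.8, 19.6 and 16.1 CPM (-0.58 ± 0.14, edgeR adjusted p = 0.0074), with every library below CAC. Ppt1 held 81.6, 74, 70.1, 79.2 and 80.8 CPM (-0.37 ± 0.09, edgeR adjusted p = 0.00775), also below every CAC library. Hexa held 109.8, 95.6, 99.2, 125 and 114 CPM (-0.34 ± 0.12, edgeR adjusted p = 0.0443), which overlapped CAC. Leaving out any 1 of 8 of the 10 libraries ended its call, at an adjusted p of 0.0608 to 0.131; CAC replicate 2 and CAC_FP replicate 4 were the exceptions. Naglu (27.2, 27.2, 19.9, 23.2 and 29.7 CPM), Lamp1 (702, 631, 579.7, 624 and 648 CPM) and Mcoln1 (51.7, 41.4, 38, 53.9 and 43.5 CPM) were not called.

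CAC_FPL against CAC again shares the CAC libraries. In CAC_FPL 3 genes rose and none fell, where 1.41% of all genes were called, 0.882% higher and 0.524% lower, and the medians were 0.08 for the list and -0.00 for all genes. That of the list was 0.03 without CAC_FPL replicate 3, 0.04 with the macrophage covariate and 0.13 with limma on FPKM. Lipa ran from 63.7 to 82.2 CPM with a median of 69.5, above every CAC library (0.63 ± 0.09, edgeR adjusted p = 0.000627). Gusb ran from 75.5 to 129.9 CPM with a median of 92.9 (0.73 ± 0.15, edgeR adjusted p = 0.018), and 3 of its 6 libraries, at 75.5 to 80 CPM, lay below the CAC maximum of 80.4 CPM. Atp6v0c lay between 109 and 114 CPM in all 6 libraries, a narrow range above all of CAC (0.29 ± 0.07, edgeR adjusted p = 0.0367).

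Groups did not overlap for 3 genes, all higher (Lipa, Atp6v0c and Manba), where 0.928% of all genes did not overlap in that direction and 0.743% in the other. Only the call of Lipa held in every alternative. That of Gusb was lost without CAC replicate 3 (0.0554), CAC replicate 4 (0.0754) or CAC_FPL replicate 5 (0.0513). That of Atp6v0c was lost without any 1 of CAC replicates 3, 4 and 5 or CAC_FPL replicates 4, 5 and 6 (0.0516 to 0.124). Without CAC replicate 2, in contrast, 6 genes were called higher.

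Values of the other genes named above stayed uncalled in CAC_FPL. Tfeb ran from 17.6 to 33.2 CPM with a median of 20.6, replicate 3 highest (-0.08 ± 0.13). Ctsl ran from 132 to 293 CPM (median 181) and Npc1 from 50.8 to 84.8 CPM (median 60.4). Replicates 4 and 6 were highest for Ctsl (291 and 293 CPM) and replicates 4 and 5 for Npc1 (84.8 and 74.9 CPM), while replicate 2 was lowest for both. Hexa ran from 91.6 to 142 CPM (median 129), Ppt1 from 71.2 to 94.3 CPM (82.8), Naglu from 23.4 to 39.4 CPM (30.5), Lamp1 from 584 to 703 CPM (639), Mcoln1 from 42.6 to 55.7 CPM (53.1), Ctsd from 403 to 571 CPM (477) and Atp6v1a from 96.7 to 108 CPM (102). Macrophage marker sums in this group were 764 to 1727 CPM and smooth muscle sums 1910 to 5936 CPM. Called markers were 1 of 6 for neutrophils, 2 of 8 for B and plasma cells and 2 of 8 for goblet cells, each lower, and none for macrophages or smooth muscle. Beside these, 0.882% of all tested genes were called higher and 0.524% lower. With the macrophage covariate 2 genes were called higher (Lipa at 0.63 and Gusb at 0.58) and 1 lower (Ppt1 at -0.34), and Atp6v0c was not called.

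The treated groups were also set against each other, which does not use the CAC libraries. CAC_FP against CAC_F gave 0 calls in the list, by edgeR and by DESeq2, with 11 of the 40 at an unadjusted p below 0.05; of all genes edgeR called 0 (0%), with 2401 at an unadjusted p below 0.05, and DESeq2 called 244. The smallest unadjusted p of the list was that of Ctss, the gene of cathepsin S (-0.44 ± 0.15, edgeR adjusted p = 0.183). The median change was -0.09 for the list and -0.00 for all genes; that of the list was -0.13 without CAC_F replicate 5 and -0.03 with voom. No gene of the list had groups that did not overlap, where 1.35% of all genes lay apart in the higher direction and 0.955% in the lower one. CAC_FPL against CAC_FP, which differ by loperamide, likewise gave 0 calls in the list by edgeR and by DESeq2, with 2 of the 40 at an unadjusted p below 0.05, and edgeR called 0 of all genes (0%; 995 at an unadjusted p below 0.05, 21 called by DESeq2). Tfeb had the smallest p there (0.50 ± 0.13, edgeR adjusted p = 0.589). Groups overlapped for each of the 40, where 0.166% of all genes lay apart in the higher direction and 0.0862% in the lower one, and the median change was 0.03 for the list and 0.01 for all genes. The sign of the list's median turned without CAC_FP replicate 3 (-0.022), without CAC_FPL replicate 3 (-0.0089) and with voom (-0.04). The sign also turned with limma on log2(FPKM + 1) (-0.0005) and without CAC replicate 2 and CAC_FPL replicate 3 together (-0.0089). That median was 0.07 without CAC_FP replicate 1. It was 0.0024 to 0.049 without any 1 of CAC_FP replicate 2 and CAC_FPL replicates 4, 5 and 6. A p above the threshold does not show that the groups were alike.

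CAC_FPL against CAC_F differ by the probiotic complex and loperamide together. Of the 40 genes 2 were higher in CAC_FPL and 3 lower, where 12.2% of all genes were called, 7.14% higher and 5.05% lower, and the medians were -0.08 for the list and 0.02 for all genes. That of the list was 0.0083 with the macrophage covariate and -0.13 without CAC_F replicate 3 or replicate 5. Markers called were 1 neutrophil and 1 fibroblast marker, lower, and 1 marker each of B and plasma cells, goblet cells and absorptive colonocytes, higher. No macrophage marker was called. The largest changes in that list were those of Mrc1 (-1.04 ± 0.37), Itgam (-0.96 ± 0.33) and Msr1 (-0.86 ± 0.34). Changes of Fcgr1 (0.34 ± 0.31), Cd163 (0.18 ± 0.67) and Csf1r (0.02 ± 0.17) were positive, and those of the other tested macrophage markers negative. Tfeb was higher (0.68 ± 0.13, edgeR adjusted p = 0.00648), and every CAC_FPL library lay above every CAC_F library. Hexa was higher by 0.42 ± 0.11 (edgeR adjusted p = 0.0208), with overlap. Gusb was lower (-0.60 ± 0.15, edgeR adjusted p = 0.0151), its highest CAC_FPL library at 129.9 CPM and its lowest CAC_F library at 136 CPM. Npc1 (-0.53 ± 0.15) and Ctsl (-0.85 ± 0.25) were lower with overlap, at edgeR adjusted p-values of 0.0268 and 0.0287. Groups did not overlap for 1 gene in each direction, where 1.7% of all genes did not overlap in the higher direction and 1.46% in the lower one.

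None of these 5 calls held in every alternative. With only the 2 groups in the fit, no gene of the 15080 was called, and the adjusted p-values of the 5 were 0.102 to 0.138. With the macrophage covariate they were 0.0653 to 0.252. Calls of Hexa, Ctsl and Npc1 were lost without any 1 of CAC_F replicates 1 and 2 and CAC_FPL replicates 1, 2 and 3 (0.0547 to 0.111). Those of Tfeb and Gusb held without any 1 library. Left out in turn, CAC_F replicate 3 and CAC_FPL replicates 4, 5 and 6 raised the number of lower genes from 3 to 9, 5, 5 and 7.

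In the deposited coordinates 17 of the 40 genes overlap another gene, 10 of them among the 21 called in CAC_F against CAC. On the same strand this was so for 4 (Glb1, Manba, Ctsl and Ctss), and apart from Glb1 the partner held 0.00331% to 0.169% as many counts. Libraries were strand-marked per the labels, but the sources used here do not say whether counting used the strand. Overlaps of genes outside the list, such as Atg9b, were not examined.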

How the data were processed

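The members and gene lists were chosen with earlier results of these data known. The authors deposited whole-number counts per gene, 1 column per library, and FPKM beside them. Cutadapt 1.9, HISAT2 and FastQC appear in the submitters' processing notes; how reads were counted, on which annotation and genome build, the sources used here do not say. Per the labels, RNA was extracted with Trizol and second strands were marked with dUTP. The labels name separate mice only through their numbering, so p-values measure the spread between these samples.

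Tests covered the 15080 genes whose deposited FPKM reached 1 in 5 or more of the 27 libraries. After TMM scaling of the counts, edgeR 4.0.16 in R 4.3.3 fitted the 5 groups jointly, and contrasts were tested with its quasi-likelihood test, two-sided, with Benjamini-Hochberg adjustment over all genes tested. Each SE was derived from the fold change and the F statistic of its test. Of these steps, the edgeR fit and its test were tried on simulated counts with known changes. Groups do not overlap where every library of one lies above every library of the other.

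Values in every library are given for Tfeb, Mcoln1, Lamp1, Ctsd, Ctsl and Atp6v0c, and for up to 4 called genes of each direction with the smallest adjusted p in each comparison; from each other pathway list up to 4 called genes in CAC_F against CAC are named, or more at a tie. A gene that this rule names is not reported here. Genes printed beyond that rule were chosen after their values were seen. The 7 comparisons were refitted with other filters, scalings, tests, covariates, groups and libraries. Gene coordinates in the deposited table did not match GRCm38 and were not mixed with the RefSeq windows. The RefSeq sequences were matched by symbol.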

Additional observations from a re-analysis of the deposited data

Results flagged for a closer look

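In 14 of 200 combinations of gene and group, involving 13 genes, 1 library lay far from the rest of its group by Dixon's criterion, which chance meets in about 1 in 20 groups. In CAC these were Gla in replicate 1 (34.1 CPM), Neu1 in replicate 2 (65.3 CPM, the only low one) and Gaa and Tpp1 in replicate 5 (78 and 137 CPM). In CAC_F, replicate 2 was high for Ctsb (1336 CPM) and Npc2 (157 CPM); it was also the library with the highest macrophage marker sum, 2515 CPM. In CAC_FP, replicate 4 was low for Ctsz (114 CPM) and high for Tfeb (19.6 CPM). In CAC_FPL, replicate 3 was high for Man2b1 (185 CPM) and Ctss (238 CPM), replicate 6 was high for Ctsb (1169 CPM) and replicate 2 was low for Galc (15.1 CPM). In NC, Arsb was high in replicate 6 (34.9 CPM) and Atp6v1b2 low in replicate 2 (114 CPM).

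The difference between the responses of CAC_FPL and CAC_F against the shared CAC libraries passed the edgeR test for 5 genes. It was -0.60 for Gusb, -0.85 for Ctsl, -0.53 for Npc1, 0.42 for Hexa and 0.68 for Tfeb on the log2 scale, and it equals the direct difference between CAC_FPL and CAC_F. In that direct comparison 12.2% of all tested genes were called, so calls were also frequent outside the list. None of the 5 calls held in every alternative fit. With only the groups compared in the fit, no tested gene was called.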

How the results depend on the processing

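No called gene changed sign in any alternative. Of the 21 genes called in CAC_F against CAC, 9 were called in every fit (Gusb, Manba, Ctsd, Lipa, Asah1, Npc1, Atp6v0c, Atp6v1a and Hexa), as were 2 of 13 in CAC_FP against CAC, 1 of 3 in CAC_FPL against CAC and 0 of 5 in CAC_FPL against CAC_F. Each group held 5 or 6 libraries, which limits precision; how precision varied with counts was not tested.

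Counts of the 40 genes that moved by over 1.5 times follow. In CAC against NC, DESeq2 called 1 higher gene in place of 0. In CAC_F against CAC, the macrophage covariate gave 8 higher genes in place of 14 and 3 lower in place of 7, the smooth muscle covariate 2 lower, and no filter, limma on log2(FPKM + 1) or log2(FPKM + 0.1) and a fit of only the groups compared 4 lower each. In CAC_FP against CAC, the smooth muscle and macrophage covariates gave 6 and 3 higher genes in place of 10 and 1 lower each in place of 3, both limma fits on FPKM 1 lower and voom with library weights 5 lower. In CAC_FPL against CAC, DESeq2 gave 7 higher genes in place of 3, voom 5, only the groups compared 1, and leaving out CAC replicate 2 and CAC_FPL replicate 3 together 5; voom and the macrophage covariate gave 1 lower in place of 0. In CAC_FPL against CAC_FP, voom gave 1 higher and 4 lower in place of 0. In CAC_FPL against CAC_F, 2 higher and 3 lower genes became 1 and 1 with no filter, 5 and 10 with voom, and 0 and 0 with the macrophage covariate or only the groups compared; a mean FPKM of at least 5 and leaving out CAC replicate 2 and CAC_FPL replicate 3 together gave 1 higher, and DESeq2 8 lower. The cause of these differences was not tested, except that fitting only the groups compared uses fewer libraries.

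Leaving out each library in turn gave 13 to 18 higher and 4 to 7 lower genes in CAC_F against CAC, 8 to 13 and 2 to 3 in CAC_FP against CAC, 1 to 6 and 0 in CAC_FPL against CAC, and 1 to 3 and 1 to 9 in CAC_FPL against CAC_F. The other 3 comparisons stayed at 0.

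Whether the replicate numbers in the labels pair the samples was not settled. The deviations of same-numbered libraries correlated at over 0.1 in 15 of 51 pairs (range -0.563 to 0.403). This cannot decide it, because differently numbered pairs were not counted beside them. With the number as a replicate block, 13 genes were higher and 6 lower in CAC_F against CAC, 9 and 2 in CAC_FP against CAC, 2 and 0 in CAC_FPL against CAC and 2 and 4 in CAC_FPL against CAC_F, and 0 in the other 3.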
